A study of Mus musculus with 6 samples.

Results

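The genes described here are 35 genes of glycolysis and of the response to low oxygen, taken by symbol from a table of 56691 mouse genes. They comprise 2 transporters, 14 glycolytic enzymes, 2 regulators of glycolytic flux, the hypoxia-inducible factor subunit Hif1a with 2 of its prolyl hydroxylases, and 14 other hypoxia targets. All 35 were found and all 35 passed the filter on low counts, as did 12467 genes in all. RNA sequencing measured expression in 6 libraries of wild-type RAW246.7 cells (the labels' spelling), a mouse macrophage line. In every library the cells had been pretreated with lipopolysaccharide (LPS), an outer-membrane component of bacteria to which macrophages respond. They were then kept for 24 h on an MSA-ZW hydrogel (3 libraries) or an MSA-DA hydrogel (3 libraries), and the study title names fibrin networks on macroporous hydrogels with different protein absorption. A positive difference means a higher level on MSA-DA than on MSA-ZW. Cells without LPS or without a gel were not analysed here, so no level can be set against a resting state.

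Glycolysis splits glucose into pyruvate in the cytosol, and lactate dehydrogenase turns pyruvate into lactate when glycolysis outpaces the mitochondria. In LPS-activated macrophages both glycolysis and the HIF-1 transcription factor are known to be raised, also where oxygen is plentiful. HIF-1 pairs the Hif1a protein with Arnt and binds hypoxia response elements in the promoters of glucose transporters, most glycolytic enzymes and other targets such as Bnip3 and Ndrg1. The Hif1a protein is controlled mainly by its stability: prolyl hydroxylases mark it for destruction when oxygen is present, so its mRNA is only 1 of several inputs to its activity.

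Promoter sequence is shown first for 6 of the 8 members that passed the test between the gels, because it is the feature that ties glycolytic enzymes to HIF-1. These are the 6 with the smallest p in that test among members with a match wholly before the annotated start. Mif, the member that fell most, held 1 match, but not wholly before the start, and is not shown. Each stretch comes from RefSeq on build GRCm38.p6, is written 5′ to 3′ on the gene's own strand and has in capitals the core of the hypoxia response element, ACGTG or GCGTG, or CACGT where ACGTG lies on the other strand. The stretches lie on chr12:73907772-73907826 (plus) for Hif1a, chr13:6648772-6648819 (minus) for Pfkp, chr11:120949028-120949066 (plus) for Slc16a3, chr7:126799351-126799405 (minus) for Aldoa, chr4:150236458-150236507 (plus) for Eno1 and chr9:59657127-59657181 (plus) for Pkm.
Hif1a: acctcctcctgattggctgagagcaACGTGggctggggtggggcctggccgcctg
Pfkp: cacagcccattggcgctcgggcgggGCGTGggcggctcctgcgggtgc
Slc16a3: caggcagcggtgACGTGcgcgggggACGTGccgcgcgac
Aldoa: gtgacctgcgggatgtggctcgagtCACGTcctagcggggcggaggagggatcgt
Eno1: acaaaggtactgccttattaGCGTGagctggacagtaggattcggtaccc
Pkm: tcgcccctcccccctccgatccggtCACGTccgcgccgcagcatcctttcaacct
The match shown began 70 bases before the annotated start in Hif1a, 23 in Pfkp, 14 in Slc16a3, 126 in Aldoa, 230 in Eno1 and 75 in Pkm. Slc16a3 held 2 matches close together, and the window around the start held 3 in Hif1a, 4 in Pfkp, 2 in Eno1, 2 in Pkm and 1 in Aldoa. The table lists 3 promoters for Aldoa, 3 for Eno1 and 2 for Pkm, of which 1 each is shown. Hif1a, whose mRNA rose, and Aldoa, whose mRNA fell, both held the ACGTG form, on opposite strands.

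The motif was common among the members, called or not. Promoter windows of 300 bases (250 before and 50 after the start) were searched on both strands for ACGTG or GCGTG, counting CACGTG, which reads ACGTG on both strands, as 1 promoter with a match. Of the 35 members 33 had entries in the RefSeq table, with 50 promoters, and 41 of these (82%) held a match. Members that passed the test held one in 11 of 13 promoters (84.6%) and the others in 30 of 37 (81.1%). Glycolytic enzymes held one in 17 of 22 promoters (77.3%), with none in Gpi1 or Tpi1, and other hypoxia targets in 16 of 19 (84.2%). The share was 62.6% of 11434 promoters of tested genes and 43.8% of all 32851 promoters in the table. The median GC content was 65.2% for the members' promoters, 60.7% for those of tested genes and 52.7% for all; its part in these shares was not tested. A match is a run of letters in the sequence and says nothing of binding.

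Count totals were 14374912 to 18346615 per library, and every pair of libraries differed by more than sampling noise. The spread was unequal: chi-square per degree of freedom of paired counts was 1.56 to 1.65 within MSA-DA and 2.77 to 4.51 within MSA-ZW. The highest was between MSA-ZW replicates 2 and 3. The labels do not say that the libraries of a gel came from separate cultures, so p-values measure only how these samples vary, and that variation may be technical. All 10 macrophage markers were expressed, with summed levels in CPM (counts scaled to a common library size) of 5647 to 5716 on MSA-ZW and 4954 to 5017 on MSA-DA. Lyz2 (2291 to 1769 CPM) and Csf1r (1079.7 to 939 CPM), both called lower, made up most of that difference. Cd14, Spi1 and Fcer1g were also called lower, with log2 differences of -0.097, -0.110 and -0.155 (edgeR adjusted p = 0.00311, 0.0266 and 0.0123). Itgam was called higher. Ptprc, Cd68 and Adgre1 had small positive differences and Tyrobp a small negative one, none of which passed. Of 24 markers of fibroblasts, epithelium, endothelium, lymphocytes and neutrophils, 10 had no count in any library, Epcam and Dcn among them, and the highest reached 1.78 CPM.

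Hif1a and the platelet-type phosphofructokinase Pfkp rose on MSA-DA, each by about 12%. The cytokine Mif, the lactate exporter Slc16a3 and the enzymes Aldoa, Eno1, Pkm and Pfkl fell, the least being Pkm, which fell by 3.49%, and the most Mif, which fell by 12%. Thus 8 of 35 members passed edgeR's quasi-likelihood test at an adjusted p under 0.05, or 22.9%, beside 13.4% of all tested genes. All 8 were among the 25 members of at least 64 CPM, a range in which 26.8% of tested genes passed. Higher calls were 2 of 35 beside 6.92% of tested genes, and 2 of 25 beside 14.3% among those of at least 64 CPM. Lower calls were 6 of 35 beside 6.5%, and 6 of 25 beside 12.4%. The log2 differences of the members ran from -0.18 to 0.17 with a median size of 0.05, against a median size of 0.09 over all tested genes and 0.06 over those of at least 64 CPM. Without MSA-DA replicate 2 or replicate 3 there were 3 lower calls rather than 6. Both genes that rose had transcripts under 50% GC and all 6 that fell above it, as set out further on. In bulk RNA, fewer cells of a kind and less RNA per cell cannot be told apart.

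**Figure D1:**
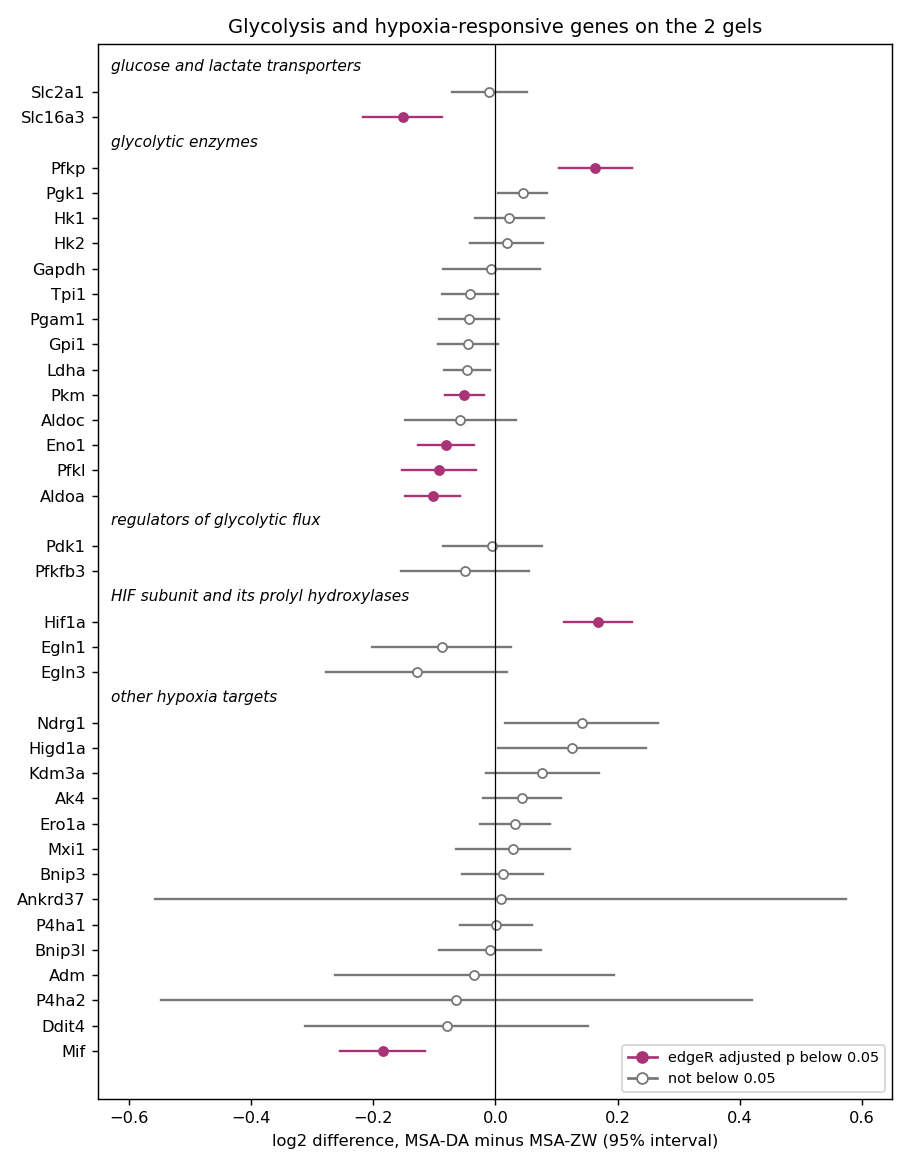
Log2 difference of each member, MSA-DA minus MSA-ZW (x axis), with its 95% confidence interval, grouped by role. Filled points passed the edgeR test at an adjusted p under 0.05; they are Hif1a and Pfkp above 0 and 6 genes below 0, and no point lies beyond -0.18 or 0.17.

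Glucose enters macrophages mainly through the transporter Slc2a1 (GLUT1), and lactate leaves through Slc16a3 (MCT4). Slc2a1 (chromosome 4, 118965908 to 118995180 on GRCm39, plus strand) stood at 209.7, 209 and 215 CPM on MSA-ZW and at 206, 213 and 209 CPM on MSA-DA. The libraries of the gels overlapped, and the 95% interval of the difference ran from -4.81% to 3.62% (edgeR adjusted p = 0.887). Slc16a3 (chromosome 11, 120839306 to 120851694, plus strand) stood at 246.8, 237 and 252 CPM on MSA-ZW and at 229, 219 and 215 CPM on MSA-DA. Every MSA-DA library was below every MSA-ZW library. It fell by 9.98%, a log2 difference of -0.15 (standard error 0.03; edgeR adjusted p = 0.000961). Slc16a3 overlaps Csnk1d on the opposite strand, which had 53.8% as many counts and a log2 difference of -0.06 (edgeR adjusted p = 0.364); no source used here says whether counting used strand.

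The 14 glycolytic enzyme genes summed to 16129 ± 310 CPM on MSA-ZW (SD, n = 3) and to 15727 ± 99.0 CPM on MSA-DA (SD, n = 3), or 1.61% and 1.57% of all counts. By library the sums were 15982, 15919 and 16485 CPM on MSA-ZW and 15838, 15648 and 15694 CPM on MSA-DA. The highest MSA-DA sum lay just below the lowest MSA-ZW sum. FPKM (fragments per kilobase of gene length, scaled to library size) divides by the exonic length listed for each gene. A ranking of genes in FPKM thus depends on that length, and whether it matches the transcripts expressed here was not tested. In FPKM, Pgk1 (2244 bases, against 5001 for Pkm) led on MSA-ZW with 1012 ± 30.9 (SD, n = 3). Pkm followed with 977 ± 15.8 and Ldha with 664 ± 10.3 (SD, n = 3). Pgk1 and Pkm thus lay close together in FPKM on MSA-ZW, and on MSA-DA they stood at 1038 ± 4.62 and 938 ± 9.75 FPKM (SD, n = 3). In CPM the order differed, with 4880 for Pkm and 2267 for Pgk1 on MSA-ZW. Aldoa had 472 FPKM on MSA-ZW, Pgam1 419.6, Tpi1 364, Eno1 289 and Gpi1 116. The genes of the early, regulated steps were lower, with 41.4 FPKM for Hk1, 39.3 for Hk2, 36.7 for Pfkl and 19.0 for Pfkp.

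**Figure D2:**
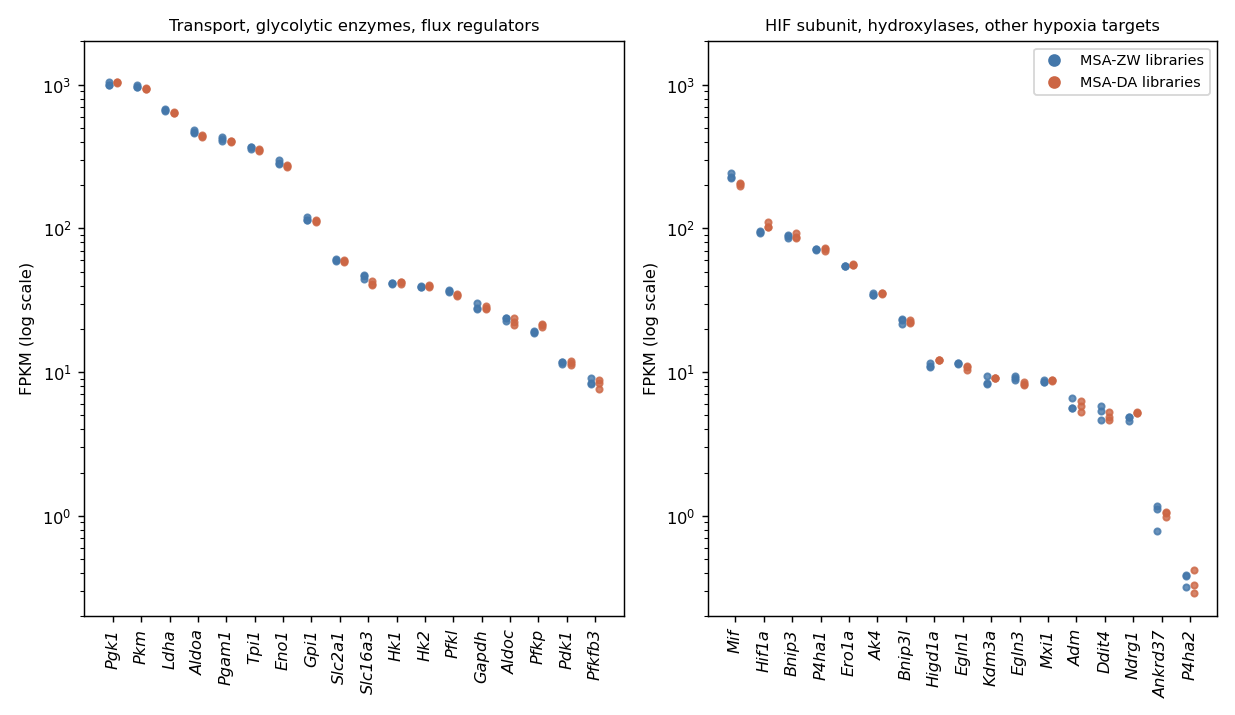
FPKM of each member in every library (log y axis; each point is 1 library, 3 per gel), with transporters, enzymes and flux regulators left and the HIF subunit, hydroxylases and other hypoxia targets right. Pgk1, Pkm and Ldha lead, P4ha2 is lowest at about 0.35 FPKM, and the points of the gels nearly coincide for most genes.

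Of these enzymes 1 of 14 rose and 4 of 14 fell, beside 14.3% and 12.4% of tested genes of at least 64 CPM, the range in which all 14 lie. The 4 falls were not called after correcting for GC content and gene length, and 10 of 14 differences were negative without it. Their median log2 difference was -0.04, against 0.00 over all tested genes. Taken along the pathway, the hexokinases, which trap glucose in the cell as glucose 6-phosphate, did not pass. Hk2 (chromosome 6, 82702006 to 82751435, minus strand), the form that HIF-1 induces, stood at 233, 233 and 237 CPM on MSA-ZW and at 234, 241 and 237 CPM on MSA-DA. These values overlapped, with a 95% interval from -2.8% to 5.59% (edgeR adjusted p = 0.755). Hk1 had a log2 difference of 0.02 and the isomerase Gpi1 of -0.04, with adjusted p of 0.668 and 0.252.

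At phosphofructokinase, the committed step, Pfkp rose and Pfkl fell. Pfkp (chromosome 13, 6629804 to 6698813, minus strand) stood at 254, 251 and 258 CPM on MSA-ZW and at 290.3, 285 and 279 CPM on MSA-DA. All MSA-DA libraries were above all MSA-ZW libraries. It rose by 0.16 on the log2 scale with a standard error of 0.03, or 12% (edgeR adjusted p = 0.000121). Pfkl, the liver-type isoform (chromosome 10, 77822781 to 77845917, minus strand), stood at 245, 239.9 and 249 CPM on MSA-ZW and at 226, 233 and 229.7 CPM on MSA-DA. Its libraries did not overlap either, in the other direction. It fell by 0.09 on the log2 scale with a standard error of 0.03 (edgeR adjusted p = 0.0322). As a description of isoforms compared after their values were seen, the ratio of Pfkp to Pfkl in FPKM was 0.517 ± 0.00366 on MSA-ZW and 0.618 ± 0.0179 on MSA-DA (SD, n = 3). The size of this ratio depends on the listed lengths, 13401 bases for Pfkp and 6675 for Pfkl. In CPM these isoforms were close on MSA-ZW, at 254 and 245. The muscle-type isoform Pfkm had 24.4 CPM on MSA-ZW and 23.8 CPM on MSA-DA and did not pass (edgeR adjusted p = 0.855). Pfkp kept its call in all 16 alternative analyses, whereas Pfkl kept it in 4: it was lost without any 1 library other than MSA-ZW replicate 2, with edgeR adjusted p of 0.0589 (without MSA-ZW replicate 3) to 0.112 (without MSA-DA replicate 1). After correcting for GC content and gene length its log2 difference was -0.03 (edgeR adjusted p = 0.659). Pfkp overlaps Pitrm1 on the opposite strand, which had 43.0% as many counts and a log2 difference of 0.00 (edgeR adjusted p = 0.973).

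Aldolase cleaves the 6-carbon sugar, and Aldoa is its main form here. Aldoa (chromosome 7, 126394406 to 126399923, minus strand) stood at 1354, 1348 and 1413 CPM on MSA-ZW and at 1278, 1253 and 1301 CPM on MSA-DA. The highest MSA-DA library was below the lowest MSA-ZW library. It fell by 6.88%, a log2 difference of -0.10 (standard error 0.02; edgeR adjusted p = 0.00147). After correcting for GC content and gene length the difference was -0.04 (edgeR adjusted p = 0.289). Aldoc, a minor isoform with 76.5 CPM on MSA-ZW, had a log2 difference of -0.06 and did not pass (edgeR adjusted p = 0.469).

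The middle of the pathway showed no call. The triose phosphate isomerase Tpi1 had a log2 difference of -0.04, the dehydrogenase Gapdh -0.01, the first ATP-yielding kinase Pgk1 0.04 and the mutase Pgam1 -0.04. Their edgeR adjusted p lay between 0.145 (Pgk1) and 0.944 (Gapdh). Pgk1 stood apart from its neighbours in sign: its 95% interval ran from 0.298% to 6.04%, and it passed when MSA-ZW replicate 3 was left out (log2 difference 0.07, edgeR adjusted p = 0.00383). After correcting for GC content and gene length this contrast was gone. Pgk1 was then at 0.025 (edgeR adjusted p = 0.416), Gapdh at 0.046, Pgam1 at 0.002 and Tpi1 at -0.0004. Gapdh was listed at only 28.6 ± 1.63 FPKM on MSA-ZW (SD, n = 3), far below Tpi1 and Pgk1 on either side of it in the pathway. In CPM, which does not use gene length, it was also lower, at 118 beside 1001 for Tpi1 and 2267 for Pgk1. No source used here says how reads matching several places were counted, and the part of Gapdh copies in this low level was not tested. The 3 copies with a symbol beginning Gapdh-ps held 0.932% as many counts as Gapdh itself. Copies under other symbols were not searched for, so this share does not cover all copies.

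At the end of the pathway, enolase and pyruvate kinase fell slightly. Eno1, which makes phosphoenolpyruvate (chromosome 4, 150321178 to 150333336, plus strand), averaged 1552 ± 48.8 CPM on MSA-ZW and 1468 ± 29.8 CPM on MSA-DA (SD, n = 3). By library it stood at 1517, 1532 and 1608 CPM on MSA-ZW and at 1500, 1461 and 1442 CPM on MSA-DA. The lowest MSA-ZW and the highest MSA-DA library were close but did not overlap. Eno1 fell by 5.46% (edgeR adjusted p = 0.0127). The near-identical copy Eno1b had 24.5% as many counts as Eno1 and fell by 9.28% (edgeR adjusted p = 0.00147), so reads of the pair may have been split and neither value is certain. The call of Eno1 was lost without MSA-DA replicate 2 (edgeR adjusted p = 0.0722) or 3 (0.0831), and after correcting for GC content and gene length (0.230).

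Pkm, which makes pyruvate and is expressed in immune cells mainly as the M2 splice form (chromosome 9, 59563651 to 59586658, plus strand), stood at 4821, 4850 and 4967 CPM on MSA-ZW. On MSA-DA it stood at 4769, 4676 and 4683 CPM, without overlap. Its difference of -3.49% was the smallest among the called members (edgeR adjusted p = 0.0255). Gene-level counts do not tell the splice forms apart. Pkm overlaps Gm49759 on the same strand, which had 2.66% as many counts. Gm49759 rose from 110 CPM on MSA-ZW to 147 CPM on MSA-DA, a log2 difference of 0.42 (edgeR adjusted p = 2.18e-09). How reads shared by Pkm and Gm49759 were counted is not given, and their part in the fall of Pkm was not tested. Pkm missed the threshold when MSA-ZW replicate 3 (edgeR adjusted p = 0.0789), MSA-DA replicate 2 (0.128) or MSA-DA replicate 3 (0.0818) was left out, and after correcting for GC content and gene length (0.685). Ldha, which makes lactate (chromosome 7, 46490899 to 46505051, plus strand), stood at 2194, 2165 and 2227 CPM on MSA-ZW and at 2126, 2124 and 2128 CPM on MSA-DA. Those groups did not overlap, yet Ldha missed the threshold, with a 95% interval from -5.65% to -0.608% (edgeR adjusted p = 0.0956).

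**Figure D3:**
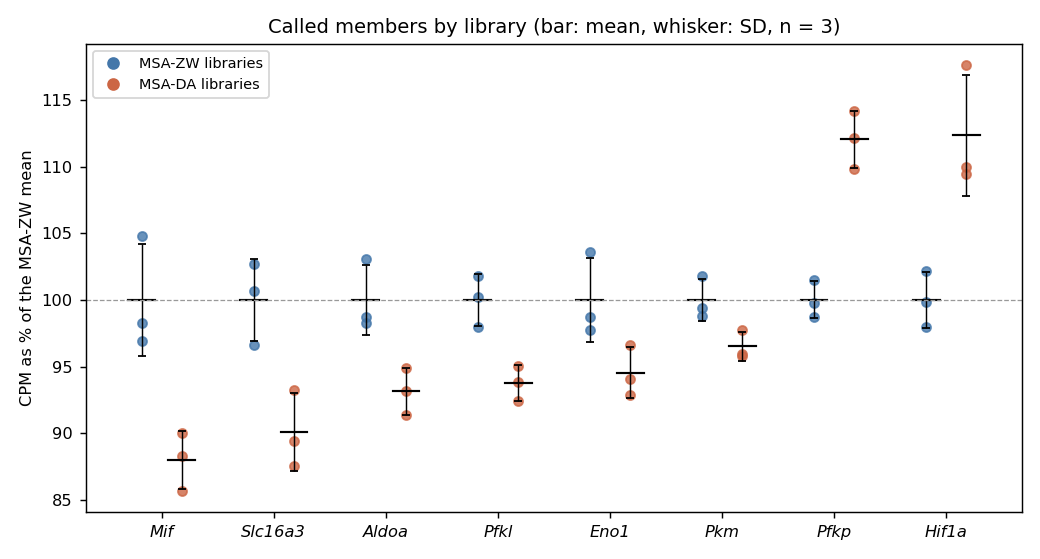
CPM of the 8 called members in each library, as a percentage of the gene's MSA-ZW mean (y axis), with the group mean and SD (n = 3). Hif1a and Pfkp lie above 100% in all MSA-DA libraries and the other 6 genes below it, with no overlap between gels.

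The regulators of flux did not pass. Pfkfb3 (chromosome 2, 11476244 to 11558888, minus strand) makes fructose 2,6-bisphosphate, the activator of phosphofructokinase. It stood at 63.3, 62.1 and 68.5 CPM on MSA-ZW and at 66.9, 58.0 and 63.3 CPM on MSA-DA, with overlapping groups (edgeR adjusted p = 0.602). Pdk1 (chromosome 2, 71703568 to 71734202, plus strand) limits the oxidation of pyruvate in mitochondria by inhibiting pyruvate dehydrogenase. It stood at 88.9, 91.5 and 91.9 CPM on MSA-ZW and at 91.0, 86.9 and 93.8 CPM on MSA-DA, again with overlap (edgeR adjusted p = 0.961). Their 95% intervals ran from -10.1% to 3.85% for Pfkfb3 and from -5.82% to 5.45% for Pdk1.

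Hif1a itself rose. The gene (chromosome 12, 73948149 to 73994304, plus strand) stood at 567, 554 and 543 CPM on MSA-ZW and at 607, 609.8 and 652 CPM on MSA-DA. All MSA-DA libraries lay above all MSA-ZW libraries. The rise was 0.17 on the log2 scale with a standard error of 0.03, or 12.3% with an interval from 8.06% to 16.8% (edgeR adjusted p = 4.00e-05). The prolyl hydroxylases that destabilise its protein, and are themselves HIF targets, did not pass: Egln1 had 41.3 CPM on MSA-ZW and 38.8 CPM on MSA-DA (edgeR adjusted p = 0.345). Egln3 had 24.3 CPM on MSA-ZW and 22.2 CPM on MSA-DA (edgeR adjusted p = 0.277). In both, the groups did not overlap and MSA-DA was lower. At these levels the intervals were wide, reaching down to -13.1% for Egln1 and to -17.5% for Egln3.

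Among the other 14 hypoxia targets only Mif passed, and it fell; this is 1 of 14, beside 13.4% of all tested genes. Mif, a cytokine that macrophages release and that HIF-1 can induce (chromosome 10, 75695187 to 75696074, minus strand), stood at 168, 166 and 179.6 CPM on MSA-ZW and at 147, 154 and 151 CPM on MSA-DA. The groups did not overlap. It fell by 12%, a log2 difference of -0.18 (standard error 0.03; edgeR adjusted p = 0.00023). The 9 copies of Mif with a symbol beginning Mif-ps together held 6 counts.

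The remaining 13 were spread around 0, from a log2 difference of -0.08 for the mTORC1 inhibitor Ddit4 to 0.14 for the stress-responsive gene Ndrg1. Ndrg1 stood at 32.1, 30.0 and 32.0 CPM on MSA-ZW and at 34.6, 34.7 and 34.4 CPM on MSA-DA, apart but short of the threshold (edgeR adjusted p = 0.138). Higd1a, a mitochondrial protein of the respiratory chain, stood at 33.7, 32.9 and 34.9 CPM on MSA-ZW and at 36.8, 37.1 and 36.8 CPM on MSA-DA. Its groups did not overlap either (edgeR adjusted p = 0.181). The ER oxidase Ero1a and the adenylate kinase Ak4 also had non-overlapping groups, with log2 differences of 0.03 and 0.04. The mitophagy receptors Bnip3 and Bnip3l differed by 0.01 and -0.01, and the collagen prolyl hydroxylase P4ha1 by 0.00. Their adjusted p lay between 0.413 (Ak4) and 0.987 (P4ha1). The histone demethylase Kdm3a (log2 difference 0.08), the MYC antagonist Mxi1 (0.03) and the peptide hormone Adm (-0.03) did not pass. Nor did P4ha2 (-0.06) and Ankrd37 (0.01), which had 2.27 and 1.58 CPM on MSA-ZW. Ankrd37 overlaps Ufsp2, with 8470 counts against its own 158, so its value is uncertain.

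The enzymes and the other hypoxia targets are set side by side here. Enzymes had 5 of 14 called (1 higher, 4 lower), beside 13.4% of all tested genes and 26.8% of those of at least 64 CPM, and a median log2 difference of -0.04. Other hypoxia targets had 1 of 14 called (lower), beside the same 13.4%, and 1 of the 7 that reached 64 CPM, beside 26.8%. Their median was 0.01, with 9 positive against 5 negative differences. After correcting for GC content and gene length, enzymes had 1 higher, 0 lower and a median of 0.00, and other hypoxia targets 1 higher, 1 lower and a median of 0.01. Summed CPM of the hypoxia targets was 1422 ± 16.3 on MSA-ZW and 1425 ± 9.73 on MSA-DA (SD, n = 3). In each MSA-DA library the median enzyme lay below its MSA-ZW mean, by a log2 of -0.03, -0.05 and -0.04, and the median hypoxia target above it, by 0.03, 0.03 and 0.04. The corresponding values in MSA-ZW libraries were -0.00, -0.02 and 0.02 for enzymes and -0.01, -0.03 and 0.03 for hypoxia targets. The enzymes were also more deeply counted, with a median of 778 CPM against 66.4 CPM, and all 14 reached 64 CPM against 7 of the 14 hypoxia targets. The median GC content was 54.4% for enzymes, 51.4% for other hypoxia targets and 50.2% for all tested genes. These are descriptions of 2 lists, with no test of their difference.

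For 19 of the 27 members that did not pass, those of at least 50 CPM, the 95% intervals reached at most 12.5% (Kdm3a) upward and -10.1% (Pfkfb3) downward. For the 8 below that level the widest interval ran from -32.0% to 48.9% (Ankrd37). Groups that did not overlap occurred in 17 of 35 members (48.6%), beside 28.4% of all tested genes and 42.5% of those of at least 64 CPM. At an unadjusted p under 0.05 there were 12 members (34.3%), beside 25.2% of all tested genes and 42.3% of those of at least 64 CPM.

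The differences of the members followed the GC content of their transcripts, which ran from 41.5% in Hif1a to 61.6% in Mif. Spearman's rho between GC content and log2 difference was -0.72 over the 35 members and -0.32 over all tested genes with a GC value; the genes share the same 6 libraries and are not independent replicates. Over all tested genes the median log2 difference was 0.06 under 45% GC, 0.02 from 45% to 50%, -0.02 from 50% to 55%, -0.06 from 55% to 60% and -0.09 above. In the same ranges the members' medians were 0.10, 0.03, -0.04, -0.08 and -0.18.

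When each library's counts were corrected for GC content and length, 5 members passed, beside 10.9% of all tested genes: 3 were higher, beside 5.33%, and 2 lower, beside 5.53%. Pfkp (log2 difference 0.17, edgeR adjusted p = 1.44e-05) and Hif1a (0.09, edgeR adjusted p = 0.00608) were still higher. Slc16a3 (-0.08, edgeR adjusted p = 0.0493) and Mif (-0.09, edgeR adjusted p = 0.0495) were still lower, at the edge of the threshold. Ndrg1 passed in addition (0.18, edgeR adjusted p = 0.0482). The 4 lower enzyme calls were lost, with adjusted p of 0.289 for Aldoa, 0.230 for Eno1, 0.685 for Pkm and 0.659 for Pfkl, and the median of the enzymes became 0.00. Whether the GC relation is technical was not tested.

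**Figure D4:**
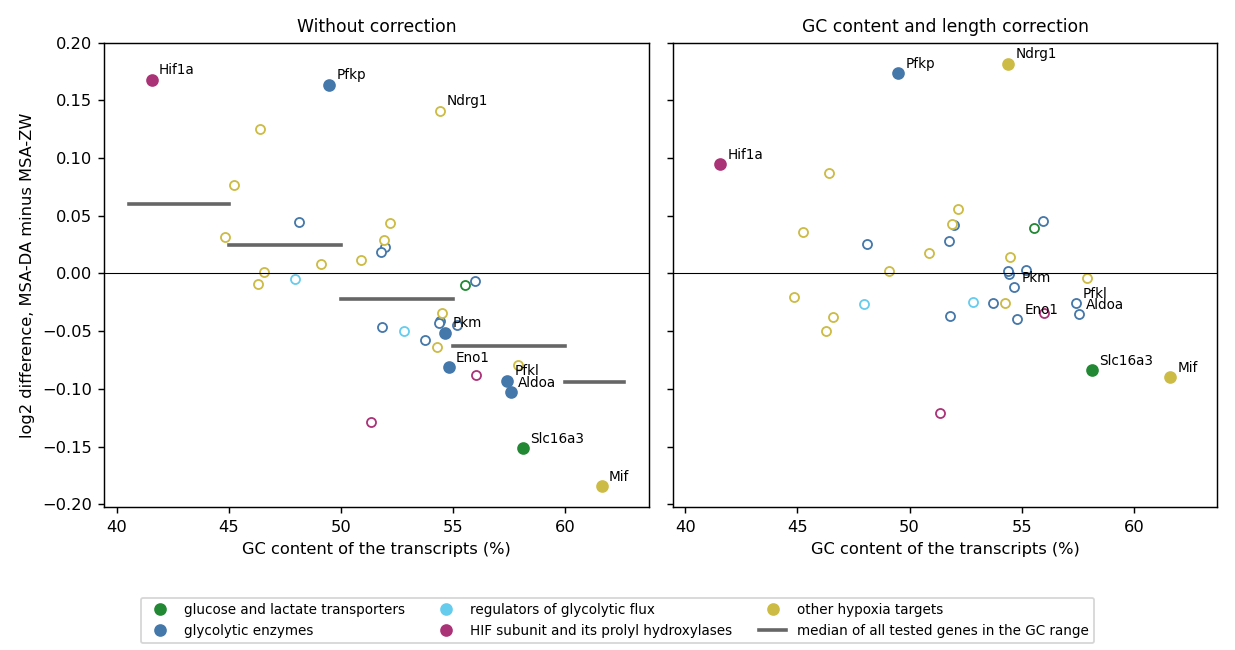
Log2 difference, MSA-DA minus MSA-ZW (y axis), of the 35 members against transcript GC content in percent (x axis), before (left) and after (right) the correction for GC content and length. Filled points passed the edgeR test (8 left, 5 right), colours give the role, and grey lines are medians of all tested genes by GC range, which run from 0.06 to -0.09.

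Further genes of the same pathways were taken as a glycolysis list and a hypoxia list. Of their tested genes 14.3% and 17.9% were called, beside 13.4% of all tested genes. Groups did not overlap in 25% and 43.6%, beside 28.4%. Of 39 other glycolysis genes and isoforms 28 were tested, with 2 higher, 2 lower (14.3% called) and a median log2 difference of 0.02. Eno2, the neuronal enolase, stood at 21.1, 20.6 and 21.0 CPM on MSA-ZW and at 25.6, 31.3 and 27.7 CPM on MSA-DA, without overlap, a 1.36-fold rise (edgeR adjusted p = 9.04e-05). Relative to Eno1 it stayed minor: the ratio of Eno2 to Eno1 in FPKM was 0.0154 ± 0.000513 on MSA-ZW and 0.0220 ± 0.00247 on MSA-DA (SD, n = 3). Gbe1, the glycogen branching enzyme, rose 1.24-fold, from 85.1 ± 1.60 to 105 ± 4.80 CPM (SD, n = 3; edgeR adjusted p = 1.04e-06). Lower were Eno1b, named above, and the phosphoglucomutase Pgm1, which links glycogen to glycolysis, from 174 ± 2.85 to 161 ± 5.40 CPM (SD, n = 3; edgeR adjusted p = 0.0188; 0.137 without MSA-DA replicate 3). The second lactate carrier Slc16a1 had 377 CPM on MSA-ZW and 390 CPM on MSA-DA and did not pass (edgeR adjusted p = 0.285). The glucose transporter Slc2a3 had 69.1 and 68.4 CPM (edgeR adjusted p = 0.922).

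Of 50 other hypoxia and HIF pathway genes 39 were tested, with 3 higher, 4 lower (17.9% called, beside 13.4% of all tested genes) and a median log2 difference of 0.01; Gbe1 is in this list too. Wsb1, part of a ubiquitin ligase, stood at 123, 119 and 124 CPM on MSA-ZW and at 159, 158 and 158 CPM on MSA-DA, well apart, a 1.30-fold rise (edgeR adjusted p = 1.72e-10). The transferrin receptor Tfrc rose 1.06-fold, from 1156 ± 7.07 to 1223 ± 30.7 CPM (SD, n = 3; edgeR adjusted p = 0.0110). Transcript GC content was 42.7% for Gbe1, 43.7% for Wsb1 and 42.1% for Tfrc, where tested genes had a median of 0.06. For Eno2 it was 56.2%, where that median was -0.06. The part of GC content in these rises was not tested. Vegfa, the angiogenic growth factor and a classic HIF target, stood at 118, 114 and 121 CPM on MSA-ZW and at 111, 108 and 103 CPM on MSA-DA. It was lower in every MSA-DA library and fell by 8.81% (edgeR adjusted p = 0.0158). The ribonuclease Rnase4 fell 1.25-fold (edgeR adjusted p = 0.00678), and Rbx1, which with Vhl forms the ligase that degrades Hif1a, fell 1.11-fold (edgeR adjusted p = 0.0358). The fourth was Elob of the same ligase, named after its values were seen, which fell 1.15-fold (edgeR adjusted p = 0.0396). The call of Vegfa was lost without MSA-DA replicate 3 (adjusted p = 0.118), after the GC and length correction (0.134), with DESeq2 (0.0562) and in the limma fits (0.0759 to 0.167), and that of Tfrc in the limma fits (0.0963 to 0.221), after the same correction (0.784) and without MSA-ZW replicate 2, MSA-DA replicate 2 or MSA-DA replicate 3. Rbx1 kept its call only without MSA-ZW replicate 3 among the analyses that left out a library, and lost it with DESeq2 (0.121) and without the count filter (0.0646). Elob lost its call with DESeq2 (0.132), without the count filter (0.0634), after the GC and length correction (0.240) and without MSA-ZW replicate 1 (0.138), MSA-DA replicate 2 or MSA-DA replicate 3 (0.169). Vhl itself had 23.1 CPM on MSA-ZW and 20.9 CPM on MSA-DA, and the HIF partner Arnt 76.5 and 75.1 CPM; neither passed (edgeR adjusted p = 0.235 and 0.774).

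**Figure D5:**
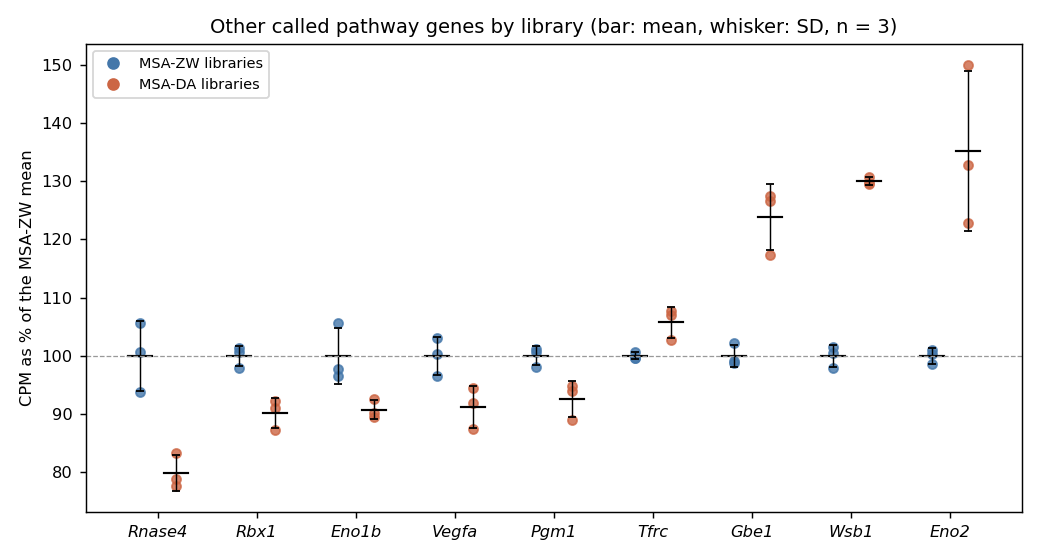
CPM in each library as a percentage of the MSA-ZW mean (y axis) for 9 called genes outside the 35, with group means and SD (n = 3). Eno2, Wsb1 and Gbe1 lie well above 100% on MSA-DA, Tfrc slightly above, and Pgm1, Vegfa, Eno1b, Rbx1 and Rnase4 below.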

How the data were processed

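Per the file headers, the deposited table lists 56691 genes, and for each of the 6 libraries a raw count and an FPKM value made by the authors. The submitters' processing notes name bcl2fastq 2.20.0.422, cutadapt 1.9.1, HISAT2 2.2.1 and build GRCm39 (counting tool, strand setting, annotation: not given in the sources used here). Deposited FPKM values equal the count divided by gene length and library total, to within 0.005 FPKM.

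MSA-DA was compared with MSA-ZW, grouped by title, with edgeR 4.0.16 in R 4.3.3: quasi-likelihood test, deposited counts, TMM, filterByExpr, group as the only term, Benjamini-Hochberg adjustment over 12467 tested genes, threshold 0.05. On counts simulated for this comparison (12467 genes, 50 changed per fold) the share of changed genes called was 50% at a fold of 1.2, 78% at 1.5, 90% at 2 and 96% at 3, and 11 unchanged genes were called. The changed genes were drawn at random over all expression levels. Every member differed by less than 1.2-fold, the largest being Mif at 1.14-fold, so these shares do not describe differences of the members' size. CPM use TMM-scaled totals. GC content came from GENCODE reference transcripts and covered 98.9% of tested genes and all 35 members. A second Aldoa row with 3 to 8 counts per library was not used. Motifs were searched in RefSeq promoters of GRCm38.p6; coordinates of genes are those of the deposited table on GRCm39.

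Members, lists and rules were chosen with earlier results of these data known. Full values were given for called members and always for Hif1a, Slc2a1, Hk2, Ldha, Pfkfb3 and Pdk1, and for up to 3 called genes per direction from each wider list; other wider genes were named after their values were seen. Alternatives were DESeq2 1.42.0, RLE size factors, no filter, limma 3.58.1 on log2(FPKM + 1) or log2(FPKM + 0.1) of genes reaching 1 FPKM in 3 or more libraries, the former also without that filter, removal of 19 ribosomal-RNA-like or mitochondrial genes, GC and length correction, a replicate block, and leaving out each library.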

Additional observations from a re-analysis of the deposited data

How the results depend on the processing

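None of the 8 called members changed direction in any of 16 alternatives, but several calls were fragile. Pfkp was called in 16, Hif1a in 15, Slc16a3 and Mif in 14, Aldoa in 13, Eno1 in 9, Pkm in 7 and Pfkl in 4; Pfkl missed the threshold with DESeq2 (adjusted p = 0.0505) and without MSA-DA replicate 1 (edgeR adjusted p = 0.112). Calls over all genes fell from 1673 to 949 with DESeq2, 906 with limma on log2(FPKM + 1), 895 on log2(FPKM + 0.1) and 412 without the FPKM filter. Leaving out 1 library gave 1001 (without MSA-DA replicate 2) to 1654. DESeq2 left 1 lower HIF pathway gene. Without the count filter 2 enzymes and 2 HIF pathway genes were lower. Limma with either pseudocount called 3 members lower, 1 enzyme lower and 1 other glycolysis gene lower. Without its filter it called 1 member higher, 0 members, 0 enzymes, 0 other hypoxia targets and 0 other glycolysis genes lower, 1 other glycolysis gene higher and 1 HIF pathway gene lower. The GC and length correction called 2 members, 0 enzymes and 2 HIF pathway genes lower and 1 other hypoxia target higher, and put the enzyme median at 0.000854.

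Same-numbered libraries did not deviate together (correlations of 0.012, -0.006 and 0.002), and not every library correlated best with its own number. The replicate block gave 1594 calls and the same counts of members, 2 higher and 6 lower. The block with the GC and length correction gave 1258 calls, 0 members lower, 0 enzymes lower, 0 other hypoxia targets lower, 2 HIF pathway genes lower and an enzyme median of 0.000979.

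Leaving out a library gave 2 to 3 members higher and 3 to 6 lower (3 without MSA-DA replicate 2 or 3), 1 to 2 enzymes higher and 1 to 4 lower (1 without MSA-DA replicate 2 or 3, 2 without MSA-ZW replicate 3). It gave 1 to 3 other glycolysis genes lower, 1 to 4 HIF pathway genes lower, an enzyme median of -0.06 to -0.03 and a hypoxia target median of 0.0103 to 0.0343.

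Signs turned only for 13 members that were not called, in 38 of 430 values, none past 0.151 in size on the log2 scale. The cause was not tested. P4ha1 was at -0.000925 with DESeq2, -0.00600 with limma on log2(FPKM + 1) with or without the filter, -0.00608 on log2(FPKM + 0.1), -0.00414 without ribosomal-RNA-like genes and -0.0381 and -0.0380 with the GC correction, without and with the block. With the GC correction, without and with the block, Slc2a1 was at 0.0397 and 0.0391, Gpi1 at 0.00317 and 0.00339, Gapdh at 0.0455 and 0.0470, Pgam1 at 0.00212 and 0.00230, Adm at 0.0143 and 0.0209 and Ero1a at -0.0200 and -0.0200. Leaving out a library spanned -0.103 to 0.0494 for Adm, -0.151 to 0.123 for Ankrd37, -0.0269 to 0.0319 for Bnip3, -0.0436 to 0.00711 for Bnip3l, -0.0395 to 0.0355 for Gapdh, -0.0162 to 0.0145 for P4ha1, -0.216 to 0.0322 for P4ha2, -0.0364 to 0.0208 for Pdk1, -0.10 to 0.00248 for Pfkfb3 and -0.0276 to 0.00153 for Slc2a1. Depth limits the genes under 50 CPM, whose intervals were wide.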
